A study of Schizosaccharomyces pombe with 2 samples.

Results

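The genes *arp3*, *arc5* and *tbc1* of fission yeast (*Schizosaccharomyces pombe*) had 5 introns in the table of annotated introns recovered as circular RNA, out of 1292 distinct introns listed there. They had 22606 of its 9296300 reads. The 3 genes were chosen by peak reads that had already been seen in these data: *arp3* and *arc5* were picked as high and *tbc1* as low in an earlier list of cytoskeleton genes. That list is not one of those used below, in which *wsp1*, *cct3* and *cct1* have introns with fewer reads than *tbc1*. Their high and low levels are therefore a description, and nothing rests on them as a test. Every row that names the genes was taken, which gave 5 introns with peak reads, 3 introns with branch reads at 4 positions, and 0 of the 222 introns listed outside the annotation. The reference annotation (ASM294v3) gives the genes 9 introns in all, so 5 of 9 were listed. Among all reference mRNA introns of up to 2000 nt, 23.9% were listed. The 3 genes each had a listed intron by the way they were picked, so these shares are not like for like.

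Arp3 is an actin-related protein of the Arp2/3 complex, which starts new actin filaments as branches on existing ones and builds the actin patches at which yeast cells take up membrane. Arc5 is a small subunit of the same complex. Tbc1 is the cofactor C of the tubulin folding pathway, in which a set of cofactors takes newly made tubulin and assembles it into the dimer of which microtubules are built. Introns leave a transcript as lariats, in which the first base of the intron is joined to an adenosine, the branch point, near its end. The enzyme Dbr1 opens them, so that cells without it keep excised introns as circles with a short tail.

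All RNA came from 1 strain, 972 h-, deleted for dbr1, with material from 41 growth and treatment conditions in 1 pool. Both libraries were made from that pool. Circular RNA was cut from 2-dimensional acrylamide gels, once after a short run with 15% acrylamide in the second gel and once after a long run with 20%, giving 1 library each. Peak and branch tables carry the name of the short run, so each value below stands without a replicate, and the conditions cannot be told apart. The files give sums over listed introns and not library depths. Intervals are 95% limits for counting error alone, and PCR copies of a molecule are not independent, so the true error may be larger.

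The sequences below show what the splicing machinery met in each listed intron. The 5 introns of the 3 genes are given 5′ to 3′ on the transcribed strand, with *arc3* intron 3 of the same complex beside them because it is 1 nt longer than *arp3* intron 3. Capitals mark the first 6 bases, the last 3 bases and, between them, the 7-nt sequence with most branch reads. In *arp3* intron 4 and *tbc1* intron 1, which had no branch reads, the inner capitals mark a match to the motif CTAAC or CTAAT or CTGAC or CTGAT in the last 40 nt. The introns lie at chr1:351200-351294 (plus strand) and chr1:351895-351959 (plus) in *arp3*, chr1:2348882-2349007 (minus) and chr1:2348615-2348704 (minus) in *arc5*, chr1:3494072-3494152 (minus) in *tbc1*, and chr2:3111601-3111696 (minus) in *arc3*. The bases were read from ASM294v3, in which each of these positions equals an annotated intron exactly.
arp3 intron 3: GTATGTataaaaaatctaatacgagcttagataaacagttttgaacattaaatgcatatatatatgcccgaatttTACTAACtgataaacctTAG
arp3 intron 4: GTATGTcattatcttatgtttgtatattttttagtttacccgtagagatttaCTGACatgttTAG
arc5 intron 2: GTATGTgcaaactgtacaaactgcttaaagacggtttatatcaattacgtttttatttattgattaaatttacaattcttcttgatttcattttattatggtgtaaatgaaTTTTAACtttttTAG
arc5 intron 3: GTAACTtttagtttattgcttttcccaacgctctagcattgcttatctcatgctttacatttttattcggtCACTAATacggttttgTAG
tbc1 intron 1: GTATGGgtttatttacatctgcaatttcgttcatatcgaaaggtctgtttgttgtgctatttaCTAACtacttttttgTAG
arc3 intron 3: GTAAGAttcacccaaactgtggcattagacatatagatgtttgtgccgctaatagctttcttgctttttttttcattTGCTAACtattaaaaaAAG

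Within *arp3* (SPAC630.03), nearly all recovered reads came from a single intron. Intron 3, of 95 nt, had 12025 peak reads (11811 to 12242) and ranked 119 in the table. Intron 4, of 65 nt, had 10 reads (4.80 to 18.4). Both were cut from the same transcript, and intron 3 had 1202.5 times the reads of intron 4 (limits 654 to 2508). It thus took 99.9% of the listed reads of the gene (Wilson limits 99.8 to 99.95). Introns 1 and 2, of 63 and 72 nt, were not listed. They flank an exon of 24 nt, the shortest internal exon of the 3 genes.

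In *arc5* (SPAC17G8.04c), a single intron also held most of the reads, here the last one of the gene. Intron 3, of 90 nt, had 10401 reads (10202 to 10603) and ranked 131, while intron 2, of 126 nt, had 162 reads (138 to 189). Intron 3 therefore had 64.2 times the reads of intron 2 (55.0 to 75.5) and 98.5% of the listed reads of the gene (98.2 to 98.7). Intron 1, of 44 nt, was not listed. Of 181 genes with 2 or more listed introns, 7 had a larger ratio of highest to lowest intron than *arp3* and 54 a larger one than *arc5*, and the median ratio was 17.8. Such ratios can be formed only above the lowest value in the table, 5 reads.

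In *tbc1* (SPAC328.08c), intron 1 of 81 nt was the only one listed, with 8 reads (3.45 to 15.8) and rank 1224. Intron 2, which at 231 nt is the longest of the 9, was not listed. Of the 5 listed introns, 2 lay above the upper quartile of 2947 reads, as did 25% of the whole table, and 2 lay below the lower quartile of 52 reads. The genes thus supplied both high and low values, which is how they had been picked.

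**Figure D1:**
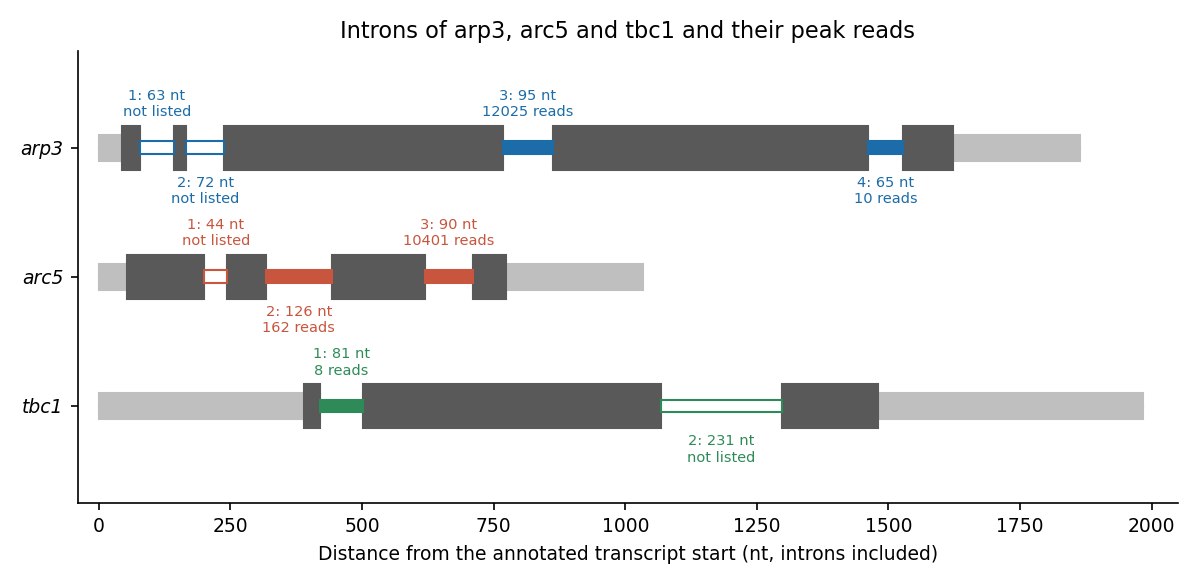
Maps of *arp3*, *arc5* and *tbc1* to scale, with the distance from the annotated transcript start in nt on the x axis. Dark boxes are coding exons, light boxes untranslated ends, filled coloured bars introns that were listed and open bars introns that were not; labels give each intron's number, length and peak reads, from 8 reads in *tbc1* intron 1 to 12025 in *arp3* intron 3.

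Recovery varied with length over the table, so each intron was placed among listed introns within 10 nt of its own length. *arp3* intron 3 had more reads than 287 of 310 such introns (92.6%), whose median together with it was 335 reads. *arc5* intron 3 had more than 304 of 325 (93.5%), with a median of 213.5 reads. Both were therefore high for their length. *arc5* intron 2 was low for its length, above only 29 of 182 introns (15.9%), which had a median of 1528 reads. Over all lengths it stood above 38.4%. *tbc1* intron 1 was also low, above 16 of 273 (5.86%), with a median of 84.5 reads. *arp3* intron 4 was not: it stood above 24 of 56 introns (42.9%), whose median was 11 reads, although over all lengths it stood above 6.51%.

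Listing itself followed length in the 9 introns. The 4 introns of 80 to 200 nt were all listed, against 1 of 4 shorter ones and 0 of 1 longer one. Each gene had a listed intron by the way it was picked. Most reference mRNA introns within 10 nt of the lengths of these 4 were listed too. The share was 91.0% for *arp3* intron 3, 94.7% for *arc5* intron 2, 83.5% for *arc5* intron 3 and 52.6% for *tbc1* intron 1. Among reference mRNA introns within 10 nt of its length, 1 of 2455 was listed for *arc5* intron 1 (0.0407%). That share was 42 of 1357 (3.10%) for *arp3* intron 1 and 138 of 781 (17.7%) for *arp3* intron 2, so these 3 missing introns were of lengths that are mostly missing. For *tbc1* intron 2 it was 21 of 47 (44.7%, Wilson limits 31.4 to 58.8). *arp3* intron 4 is the exception among the short ones, listed where 55 of 1211 reference introns were (4.54%).

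**Figure D2:**
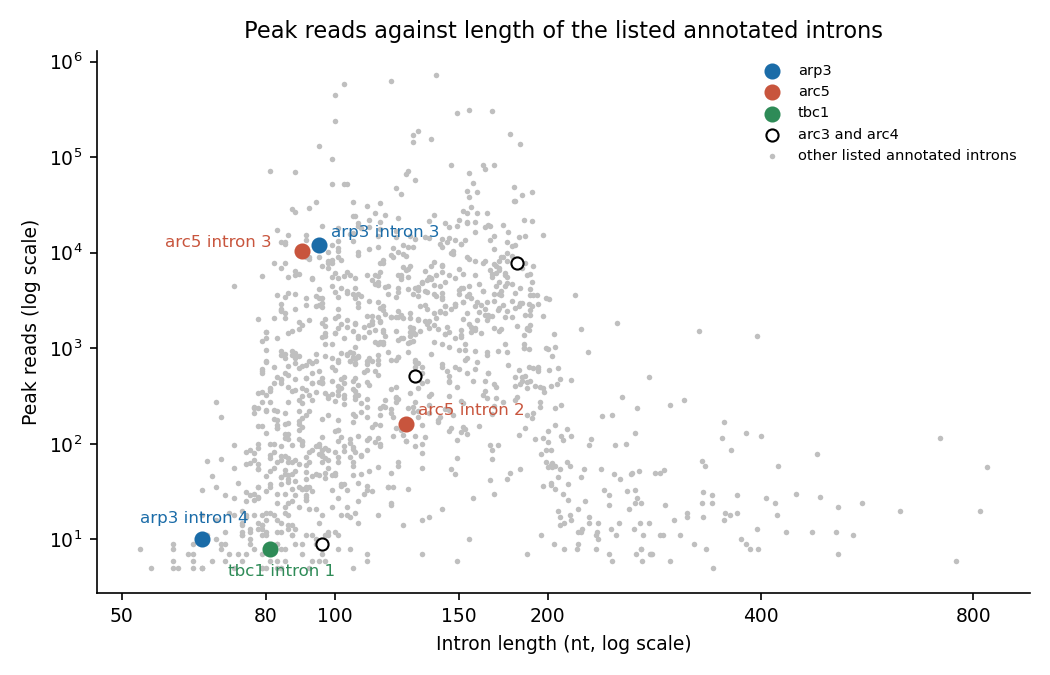
Peak reads (y axis, log scale) against intron length in nt (x axis, log scale) for the 1292 listed annotated introns, with each intron of *arp3*, *arc5* and *tbc1* coloured and those of *arc3* and *arc4* as open circles. *arp3* intron 3 and *arc5* intron 3 lie above most points of like length, at 12025 and 10401 reads, and *tbc1* intron 1 near the bottom at 8 reads.

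Introns of equal or nearly equal length in different genes also differed widely. *arp3* intron 3 had 12025 reads at 95 nt and *arc3* intron 3 had 9 reads (4.12 to 17.1) at 96 nt. The ratio was 1336 (704 to 2923) between genes for subunits of the same complex. This pair sets an intron picked as high against one that was low for its length. *arc3* intron 3 stood above 9 of 307 introns within 10 nt of its length (2.93%). *arc5* intron 3 had 10401 reads, against 188 reads for intron 1 of the α-tubulin gene *nda2*, which is also 90 nt, a ratio of 55.3 (47.9 to 64.2). For *tbc1*, intron 1 had 8 reads at 81 nt, against 7846 reads for intron 5 of the β-tubulin gene *nda3* and 6 reads for intron 1 of *wsp1*, both of 85 nt. The introns of *nda2*, *nda3* and *wsp1* were picked for their length after their values were seen. The cause of such gaps was not tested.

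Branch reads, which cross the joint between the first base and the branch point, gave a second readout of the same circles. They were listed for 3 of the 5 introns, and for 58.5% of all listed annotated introns. *arc5* intron 3 had 281 branch reads (249 to 316), *arp3* intron 3 had 3 (0.619 to 8.77) and *arc5* intron 2 had 2 (0.242 to 7.22). *arp3* intron 4 and *tbc1* intron 1, with 10 and 8 peak reads, had none listed. Thus the intron pair that was nearly level in peak reads, with *arp3* intron 3 at 1.16 times *arc5* intron 3 (1.13 to 1.19), was far apart in branch reads.

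Per 1000 peak reads, *arc5* intron 3 had 27.0 branch reads (23.9 to 30.4) and *arp3* intron 3 had 0.249 (0.0514 to 0.729), a ratio of 108 (36.7 to 528). *arc5* intron 2, with 12.3 (1.5 to 44.6), could not be told apart from intron 3 of its own gene at this depth. The 756 introns found in both tables had a median of 4.68 and quartiles of 1.16 and 19.0. *arc5* intron 3 stood above 79.6% of the others and *arp3* intron 3 above 5.70%. Among the 70 introns with 8000 to 16000 peak reads and any branch read, a range picked once the values were known, the median was 10.5 branch reads. *arc5* intron 3 had more branch reads than 68 of the other 69, and *arp3* intron 3 more than 9. In branch reads per 1000 peak reads, *arc5* intron 3 stood above 98.6% of that class and *arp3* intron 3 above 17.4%. Why the ratio of the readouts differed was not tested.

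**Figure D3:**
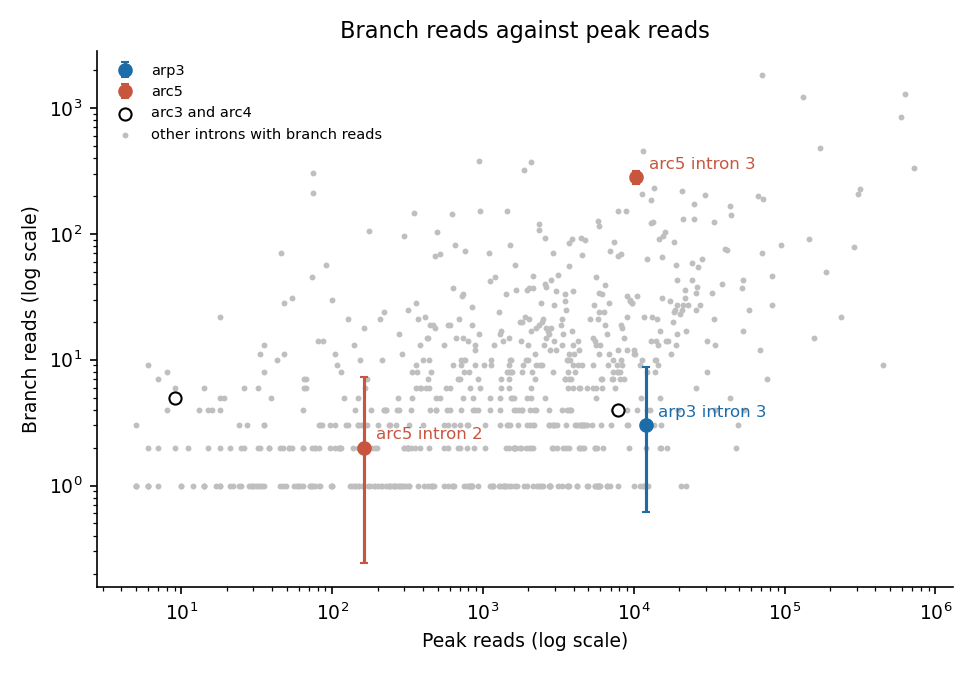
Branch reads (y axis, log scale) against peak reads (x axis, log scale) for introns with both, with the introns of *arp3* and *arc5* coloured and those of *arc3* and *arc4* as open circles. Bars are 95% Poisson limits of the branch reads; *arc5* intron 3 and *arp3* intron 3 lie close together on the x axis but stand at 281 and 3 branch reads.

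The leading branch sequence differed among the 3 introns. In *arp3* intron 3, all 3 branch reads lay at TACTAAC, the most frequent leading sequence of the branch table (136 of 817 introns, 16.6%). *arc5* intron 3, with far more branch reads, used CACTAAT, which led in 7 introns (0.857%), and *arc5* intron 2 used TTTTAAC, which led in 12 (1.47%). The listed distance, the number of bases that follow the 7-nt sequence within the intron, was 13 nt in *arp3* intron 3 and 12 nt and 8 nt in introns 3 and 2 of *arc5*. The table had a median of 11 nt and quartiles of 9 and 13 nt, so all 3 were close to the usual distance, with intron 2 of *arc5* just under the lower quartile.

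If the sixth base of the 7-nt sequence is taken as the branch base, the circle without its tail measured 81 nt in *arp3* intron 3, 77 nt in *arc5* intron 3 and 117 nt in *arc5* intron 2. In *arc5* intron 3, 277 of 281 reads (98.6%, Wilson limits 96.4 to 99.4) lay at CACTAAT and the other 4 at TCACTAA, which is the same stretch read 1 nt further upstream. Of 167 introns with 2 or more listed positions, 109 (65.3%) had their leading positions 1 nt apart in this way. Whether such neighbours are separate branch points was not tested. With 3 and 2 branch reads, *arp3* intron 3 and *arc5* intron 2 could hardly show a second position.

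The first bases were shared by introns of high and low counts. Of the 9 introns, 5 began with GTATGT, among them *arp3* intron 3 with 12025 reads, *arp3* intron 4 with 10 and *arc5* intron 2 with 162. GTATGT opened 315 of the 1292 listed introns (24.4%), and GTAAGT, the most frequent start, opened 483 (37.4%). *arc5* intron 3 began with GTAACT, shared by 3 listed introns in all (0.232%). *tbc1* intron 1 began with GTATGG, shared by 16 listed introns (1.24%) with a median of 2900 reads, although it had 8. All 5 listed introns ended in TAG, as did 72.3% of the table.

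Searched on the transcribed strand only, the last 40 nt held at least 1 match to CTAAC or CTAAT or CTGAC or CTGAT in 6 of the 9 introns and in 1054 of the 1292 listed ones (81.6%). *arp3* intron 3 held CTAAC and CTGAT, which overlap by 1 base. The motifs were found in unlisted introns too: CTAAC lay 12 nt from the end of *arp3* intron 1 and 9 nt from the end of *tbc1* intron 2. *arc5* intron 2 held none of the 4 motifs but had branch reads at TTTTAAC. The GC content was 34.4% in *arc5* intron 3 and 26.3% in *arp3* intron 3, on either side of the table's median of 30.2%. It was 23.0% in *arc5* intron 2, 27.7% in *arp3* intron 4 and 32.1% in *tbc1* intron 1.

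All 9 introns interrupt coding sequence. *arp3* intron 3 follows 588 of 1284 coding bases and intron 4 follows 1188, and *arc5* introns 2 and 3 follow 219 and 396 of 459, so these 4 fall between codons. *tbc1* intron 1 follows 31 of 780 coding bases and splits a codon. The 2 highest introns start 767 nt from the transcript start in *arp3* and 620 nt in *arc5*, and the lowest starts 420 nt from it in *tbc1*.

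Circles that would hold a skipped exon were not listed for the 3 genes. The 6 internal exons would give, with both flanking introns, circles of 159 to 878 nt. Only exon 2 of *arp3*, at 159 nt, and exon 2 of *arc5*, at 243 nt, fall within the 121 to 279 nt spanned by the 23 circles that were listed. Among the tubulin folding genes, *alp41*, which encodes an Arf-like GTPase of that pathway, had 2 such circles, exon 3 with 663 reads (613 to 715) and exon 5 with 309 (275 to 345), counted over both gel runs together. None of its 6 introns of 38 to 54 nt was itself listed.

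The rest of the Arp2/3 complex showed the same wide range. Its 7 genes have 16 introns, of which 7 in 4 genes were listed (43.8%, against 23.9% of reference mRNA introns). That share includes *arp3* and *arc5*, which had listed introns by the way they were picked. The median of the 7 listed introns was 510 reads, and 438 for the whole table, but the list's value depends on which introns enter. It was 4197.5 reads over introns of 80 to 200 nt and 9143 over the highest intron of each gene. In *arc4*, which encodes another small subunit, intron 3 of 181 nt had 7885 reads (7712 to 8061). Intron 2 of 130 nt had 510 (467 to 556), so the last intron was higher, as in *arc5*, by 15.5 times (14.1 to 16.9). In *arp3* the last intron was the lower, with 10 reads in intron 4 against 12025 in intron 3. The last intron of *arc3*, the only one listed in that gene, had 9 reads. *arc4* intron 3 had 4 branch reads, or 0.507 per 1000 peak reads (0.138 to 1.30), with limits that overlap those of *arp3* intron 3. *arc3* intron 3 had 5 branch reads at TGCTAAC beside only 9 peak reads. The single introns of *arp2*, *arc1* and *arc2*, of 50, 47 and 40 nt, were not listed, so no listed intron of Arp2, the other actin-related protein of the complex, could be set beside those of *arp3*.

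Most introns of the tubulin folding genes are short. The 6 genes have 20 introns, of which 2 were listed (10%, against 23.9% of reference mRNA introns). That share includes *tbc1*, which had a listed intron by the way it was picked. None of the 17 under 80 nt was listed, while both of those of 80 to 200 nt were. Besides *tbc1* intron 1, only intron 2 of *alp31*, the gene of cofactor A, was listed, with 149 reads (126 to 175) at 152 nt and 5 branch reads at TACTGAC. *alp1* and *alp21*, the genes of cofactors D and E, had no listed intron among 6 and 4, and *alp11*, for cofactor B, has none. The median of 78.5 reads therefore rests on 2 introns.

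In the wider actin and tubulin list, 10 of 48 introns were listed (20.8%, against 23.9% of reference mRNA introns), with a median of 180 reads, or 1188 reads over those of 80 to 200 nt. The highest was intron 2 of *adf1*, which encodes the filament-severing protein cofilin, with 8253 reads at 163 nt and 69 branch reads at CACTAAT, the leading sequence of *arc5* intron 3. The lowest was intron 1 of *wsp1*, the WASP homologue that activates the Arp2/3 complex, with 6 reads at 85 nt. In the chaperonin list, whose products fold actin and tubulin, 4 of 15 introns were listed (26.7%), with a median of 1202.5 reads, or 3977.5 over those of 80 to 200 nt. They ran from intron 2 of *cct3* with 6 reads to intron 2 of *cct7* with 5557. *arp3* intron 3 and *arc5* intron 3 were above every other listed intron of these 4 lists, and had been picked as high. Actin itself, *act1*, has no intron in the reference.

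**Figure D4:**
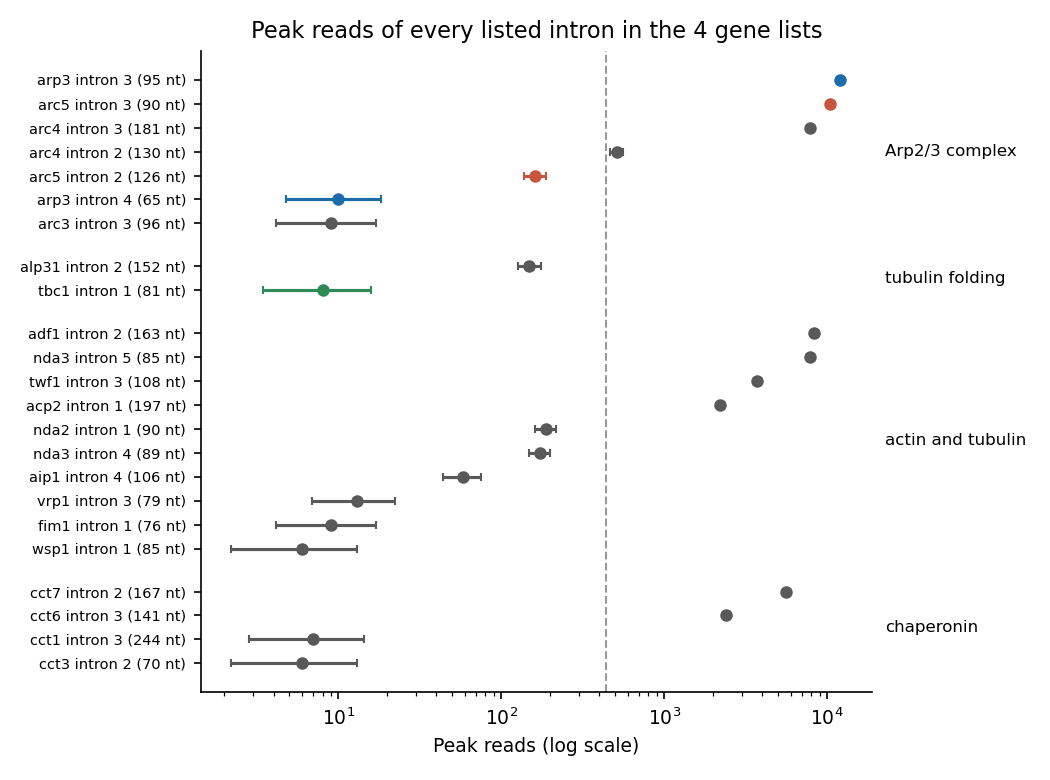
Peak reads (x axis, log scale) of every listed intron in the 4 gene lists, with 95% Poisson limits as bars and the table's median of 438 reads as a dashed line; *arp3*, *arc5* and *tbc1* are coloured. The Arp2/3 introns run from 9 reads in *arc3* to 12025 in *arp3*, and the tubulin folding list holds 2 introns, both below the median.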

How the data were processed

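The submitters' processing notes name Bowtie 0.12.3 and SAMtools without their roles; peak caller, thresholds and genome build are not stated in the labels or headers. The deposited values are, per the file headers, read counts for intron peaks, skipped exons and branch positions. These counts may depend on length, gel recovery, library preparation and other factors together, which were not separated or tested. The lowest deposited counts were 5 for annotated and 50 for added introns.

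In the annotated table, 22 repeated lines were kept once (1292 of 1314). Positions were compared with ASM294v3, in which 1258 introns matched an mRNA intron. Branch rows were joined by gene name, synonym or systematic name with the intron number or, where this gave no single match, by position. Joins by position were kept only where the branch sequences lay at the listed distance. All 756 joined introns held their branch sequences at that distance, which for joins by position was fixed in advance. Poisson, Wilson and, for ratios, exact conditional binomial 95% intervals were used. The Poisson and ratio intervals were checked on simulated Poisson counts, and the Wilson interval was not checked. No test was run, because each value comes from 1 library. The 3 genes, the 4 lists and the alternatives were chosen with earlier results of these data known. Every listed intron of the 3 genes, of the Arp2/3 list and of the tubulin folding list was named, and the highest and lowest of the other lists. Python 3.11.15, numpy 2.4.6, pandas 2.3.3, scipy 1.17.1 and matplotlib 3.10.9 were used.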

Additional observations from a re-analysis of the deposited data

How the results depend on the processing

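Each value was recomputed under its alternatives, 35 in all, of which 21 were counted as unchanged. The limit was the 95% interval of the value reported or, for medians, 1.5 times. Branch distances had no interval and were counted as unchanged too. Some alternatives could not differ, such as the leading branch position alone in introns with 1 listed position. The count of 21 is therefore not a measure of robustness. With all lengths as the background, the share of introns with fewer reads was 6.51% for *arp3* intron 4, 38.4% for *arc5* intron 2 and 89.9% for *arc5* intron 3. With a window of 20 nt it was 20.8% for *arp3* intron 4. With a background of at least 50 reads it was 0% for *arp3* intron 4 and for *tbc1* intron 1, which lie under that minimum themselves, and 11.0% for *arc5* intron 2. Divided by length, *arc5* intron 3 held 98.9% of the listed reads of its gene. Among introns of 8000 to 16000 peak reads, a range added after seeing the data, the share with fewer branch reads per 1000 peak reads was 17.4% for *arp3* intron 3 and 98.6% for *arc5* intron 3. Of the list medians, that of tubulin folding could not move. Its 2 listed introns are each the only listed one of their gene, and both are of 80 to 200 nt. With the highest intron of each gene alone, the Arp2/3 median was 9143 reads, and with introns of 80 to 200 nt alone it was 4197.5 for the Arp2/3 list, 1188 for actin and tubulin and 3977.5 for the chaperonin list. Depth limits the low introns: the limits ran from 3.45 to 15.8 at 8 peak reads and from 0.619 to 8.77 at 3 branch reads, and smaller differences were not detectable.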

Other observations

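*twf1*, which encodes the actin-binding protein twinfilin, had an intron that shares its branch sequence with *arc5* intron 2. Its intron 3 (108 nt) had 3693 peak reads and 85 branch reads with a leading TTTTAAC, against 162 peak reads and 2 branch reads in *arc5* intron 2. The intron was picked after its values were seen. Intron 2 of *cct7*, a chaperonin subunit gene, had 5557 peak reads and 1 branch read, which is 0.180 branch reads per 1000 peak reads (0.00456 to 1.00), beside 0.249 in *arp3* intron 3.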
